A study of Mus musculus with 1094 samples.

Results

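The oligodendrocyte lineage genes Olig1, Olig2, Pdgfra, Egfr, Sox10, Cspg4 and Nkx2-2 were followed through single-cell transcriptomes of the developing mouse dorsal cerebral cortex. They were found by symbol in the expression tables, 7 of 23078 gene rows in all. Levels are TPM, a share of a cell's transcripts scaled by transcript length and with the same total in every cell. Neural stem cells (NSC) were sorted for green fluorescence from Hes5::GFP mice. Basal progenitors (BP) and newborn neurons (NBN) were sorted from Tbr2::GFP mice. Labels give every cell as C57Bl/6, wild-type and female. Cells were captured on a Fluidigm C1 array and sequenced singly, so each deposited sample is 1 cell. No animals are named, and the cells of 1 population at 1 stage are called a library here. Late NSC are the libraries of E17.5, E18.5, P0 and P1 (237 cells), and early NSC those of E10.5, E11.5, E13.5 and E15.5 (301 cells). Late BP are the libraries of E16.5, E18.5 and P0 (227 cells), and early BP those of E12.5 and E14.5 (117 cells). NBN (212 cells) span E16.5 to P3 in 4 libraries, of E16.5, E18.5, P1 and then P3. P0, P1 and P3 carry labelled ages of 1, 2 and 4 days. A reporter under the Hes5 promoter marks cells with Notch signalling, and one under the Tbr2 (Eomes) promoter marks the neuronal branch. A fluorescent protein can outlast the transcription of its reporter, so a sorted cell need not be of the named type.

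Oligodendrocytes are the cells that wrap axons in myelin, and they arise from dividing precursors. In the forebrain, precursors come in waves, first from ventral and later from dorsal progenitors around birth. The transcription factors Olig1 and Olig2 mark progenitors that can enter the lineage, and Sox10 and Nkx2-2 act in the steps towards a precursor and a myelinating cell. Pdgfra, the receptor of platelet-derived growth factor, and Cspg4, the NG2 proteoglycan, are surface proteins of precursors. Egfr, the epidermal growth factor receptor, is used by late cortical progenitors that make glia. Several of these genes have other roles: Olig2 and Nkx2-2 pattern ventral neural progenitors, and Pdgfra is a gene of fibroblasts, those of the meninges included.

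In GENCODE M21 (GRCm38), Olig1 (ENSMUSG00000046160.5 in the files) lies on chr16:91269772-91271933 and Olig2 (ENSMUSG00000039830.8) on chr16:91225457-91228677, both on the plus strand. The end of Olig2 is 41094 bases from the start of Olig1. Pdgfra (ENSMUSG00000029231.9) lies on chr5:75152292-75198215, Egfr (ENSMUSG00000020122.10) on chr11:16752203-16918158 and Cspg4 (ENSMUSG00000032911.5) on chr9:56865033-56899870, also on the plus strand. On the minus strand lie Sox10 (ENSMUSG00000033006.9; chr15:79154908-79165240) and Nkx2-2 (ENSMUSG00000027434.10; chr2:147177546-147194243). The values are for whole genes, so exons and isoforms are not separated. Promoter windows, 250 bases before to 50 after the RefSeq start, were matched for 5 of the 7 genes (GRCm38.p6), not for Olig1 and Sox10. Those of Olig2, Pdgfra and Egfr are shown because their levels carry the comparisons below: chr16:91225300-91225599, chr5:75152001-75152300 and chr11:16751953-16752252, all plus strand, 5′ to 3′. Capitals mark matches, on either strand, to CAGCTG (a form of the E-box read by basic helix-loop-helix factors such as Olig proteins), AACAAT (a core read by Sox factors), TATAAA or CCAAT.
Olig2: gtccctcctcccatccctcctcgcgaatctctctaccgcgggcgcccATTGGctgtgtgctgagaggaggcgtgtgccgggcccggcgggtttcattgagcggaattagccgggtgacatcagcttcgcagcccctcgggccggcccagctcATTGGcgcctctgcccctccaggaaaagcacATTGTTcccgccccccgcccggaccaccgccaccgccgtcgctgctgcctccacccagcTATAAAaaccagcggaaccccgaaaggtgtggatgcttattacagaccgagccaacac
Pdgfra: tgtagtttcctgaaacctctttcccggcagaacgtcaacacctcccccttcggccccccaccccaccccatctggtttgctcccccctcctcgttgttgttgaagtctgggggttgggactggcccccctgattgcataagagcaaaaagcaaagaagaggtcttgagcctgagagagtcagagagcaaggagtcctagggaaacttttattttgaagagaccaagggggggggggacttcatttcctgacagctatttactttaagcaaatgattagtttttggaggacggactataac
Egfr: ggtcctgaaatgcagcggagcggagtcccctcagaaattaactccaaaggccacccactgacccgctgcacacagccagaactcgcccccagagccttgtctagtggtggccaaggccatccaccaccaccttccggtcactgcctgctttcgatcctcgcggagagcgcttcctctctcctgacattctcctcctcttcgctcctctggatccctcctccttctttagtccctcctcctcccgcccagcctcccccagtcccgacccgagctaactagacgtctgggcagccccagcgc
The Olig2 window held AACAAT on the minus strand from position -67, TATAAA from -8 and CCAAT on the minus strand from -203 and -98, counted from the start site, with no overlaps. The other 2 windows held none of these letters. Of 32851 windows of this length, 16.3% held CAGCTG, 10.7% AACAAT, 13.6% TATAAA and 37.4% CCAAT. These matches describe the letters only, and no binding was measured.

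A library held 39 to 89 cells. TPM keep no sequencing depth, so depth is unknown. Genes reaching 1 TPM in a cell had library medians of 3371 to 5014.5 in late NSC and 4510 to 5688 in early NSC. Over all libraries NBN P1 was lowest (3189) and NBN E16.5 highest (5764). No 2 cells had identical columns (0 of 1094). Sorted populations were checked by markers, a cell holding a type's markers where at least 3 of them reached 10 TPM. Radial glia markers (Hes5, Sox2, Slc1a3 and others) were held by 198 of 237 late NSC cells, and neuron markers (Neurod6, Dcx, Tubb3 and others) by 114. In the NSC library of E15.5, 84 of 86 cells held neuron markers and 38 held radial glia markers, so most cells of this stem cell library did not meet this rule for radial glia. In NBN P3 only 7 of 40 cells held neuron markers, while 13 held meningeal and 17 held microglial markers. Some tests of the 7 genes are also given without 1 of these libraries, and other tests with them only. All tests compare libraries, and since nothing says that libraries came from separate animals, p-values measure a spread between libraries that may be technical.

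Olig1 was close to absent from the NSC libraries up to E17.5 and present in 27.3% of their cells or more from E18.5. A gene was counted in a cell at 1 TPM or more. From E10.5 to P1, the NSC libraries had 2 of 88, 0 of 59, 0 of 68, 0 of 86, 2 of 76, 18 of 66, 21 of 48 and 25 of 47 cells with Olig1. The shares at E18.5, P0 and P1 were 27.3% (17.0 to 39.6%), 43.8% (29.5 to 58.8%) and 53.2% (38.1 to 67.9%). Ranges in brackets are exact Clopper-Pearson intervals at 95%, which cover counting error only. The intervals of these 3 stages overlap each other, and that of E18.5 lies above the 2.63% (0.320 to 9.19%) of E17.5. The make-up of the libraries differed as well. Neuron markers were held by 62 of 76 cells at E17.5, and by 21 of 66, 24 of 48 and 7 of 47 at E18.5, P0 and P1. Stage and make-up change together here, and the part of each was not tested. No BP cell reached 1 TPM, 0 of 227 in late BP, which allows a share of up to 1.61%, and 0 of 117 in early BP, up to 3.10%. NBN had 2 Olig1 cells of 212 (0.943%, 0.114 to 3.37%). At 10 TPM or more the late NSC stages had 0, 15, 19 and 12 Olig1 cells. The median over Olig1 cells was 106.3, 33.9 and 9.20 TPM at E18.5, P0 and P1, so most Olig1 cells of P1 had low levels.

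Olig2 had an early and a late period among the stem cells. Taken from E10.5 to P1 as above, it reached 1 TPM in 8 of 88, 4 of 59, 0 of 68, 0 of 86, 5 of 76, 15 of 66, 17 of 48 and 13 of 47 cells. The shares at the last 4 stages were 6.58% (2.17 to 14.7%), 22.7% (13.3 to 34.7%), 35.4% (22.2 to 50.5%) and 27.7% (15.6 to 42.6%). Counts of 0 at E13.5 and E15.5 allow shares of up to 5.28% and 4.20%. Olig2 was listed at 0 in every cell of the 5 BP libraries, and 1 NBN cell of 212 reached 1 TPM. All 8 early cells at E10.5 held radial glia markers and 6 of them held markers of dividing cells, as did 68 of all 88 cells there. The highest early values were in 2 cells of E11.5. The cell with 68.4 TPM held neuron markers and no radial glia markers. That with 60.1 TPM held markers of radial glia, interneurons and dividing cells. Most late Olig2 cells had modest levels, with a median of 8.71 TPM, while single cells reached 1013 TPM at E18.5 and 996 TPM at P1.

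**Figure D1:**
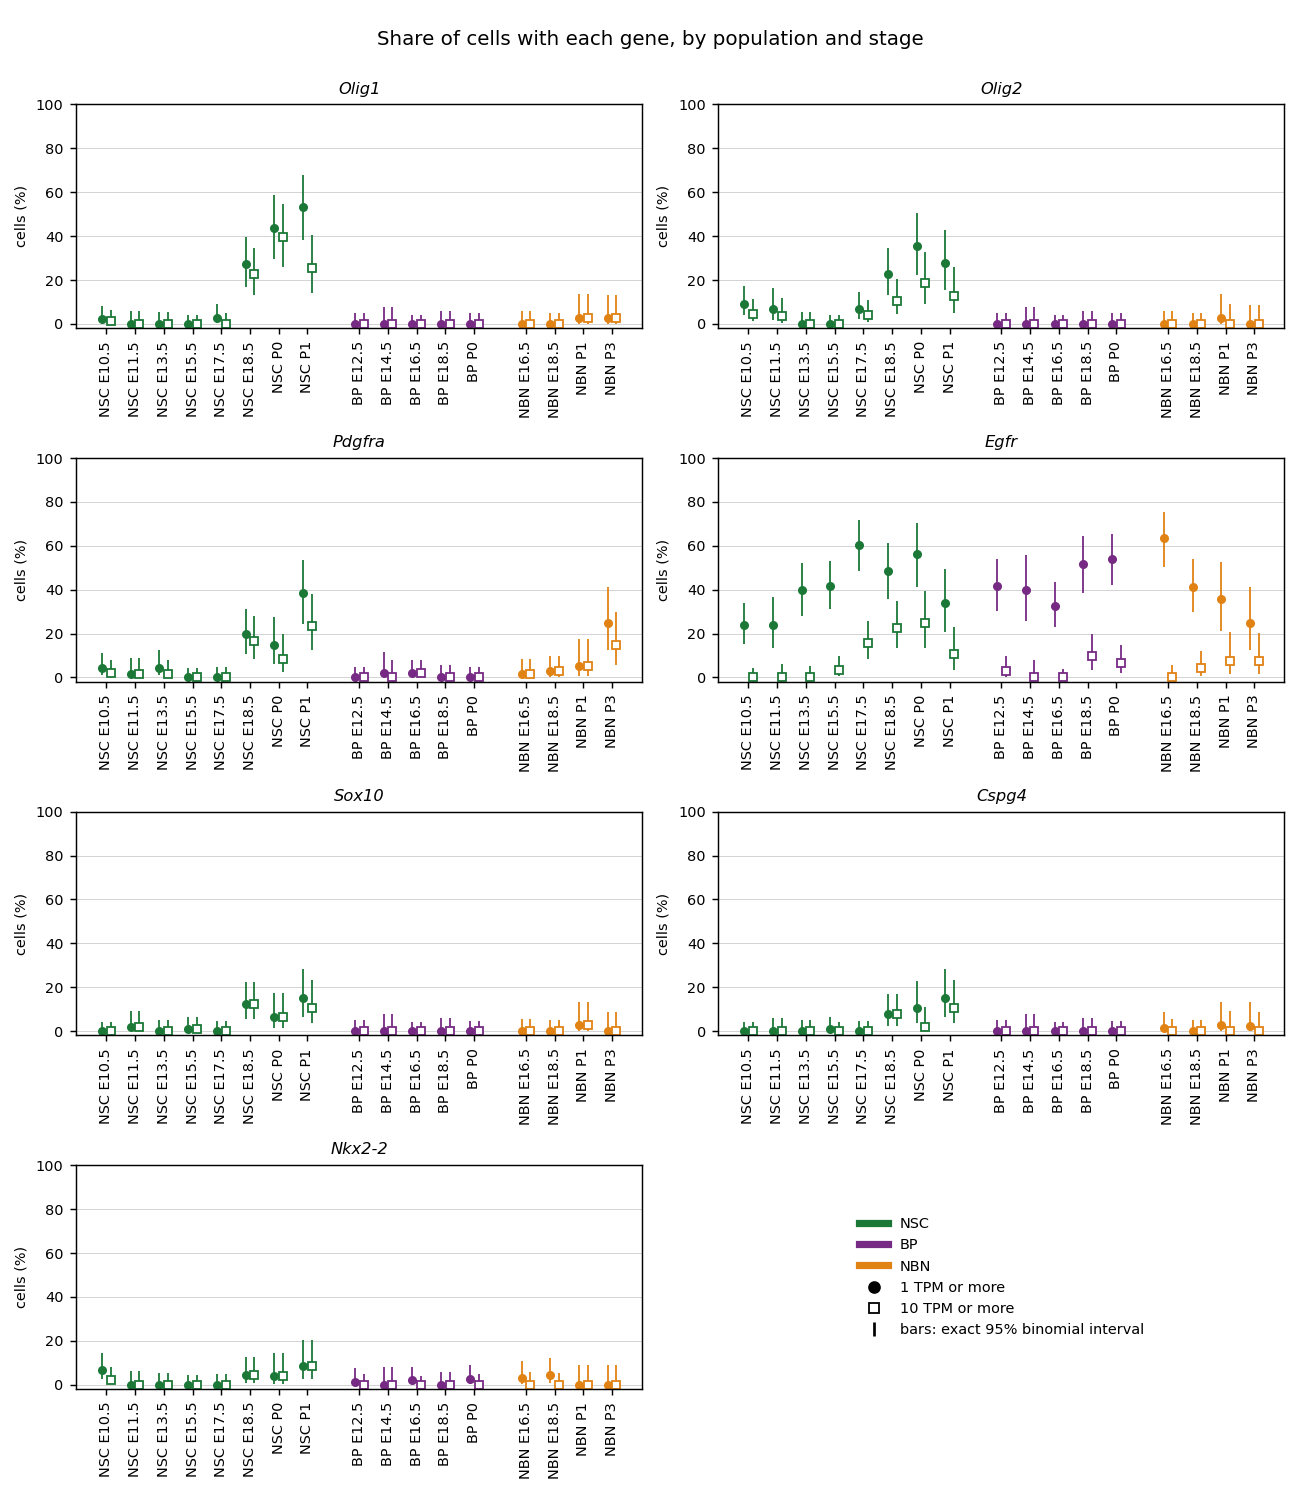
Share of cells (%) with each of the 7 genes in the 17 libraries, at 1 TPM or more (filled circles) and at 10 TPM or more (open squares); bars are exact 95% binomial intervals for counting error. Olig1 lies at 27.3 to 53.2% in NSC at E18.5, P0 and P1 and at 0% in every BP library, while Egfr at 1 TPM or more lies at 23.7 to 63.5% in all 3 populations.

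The factors of the later steps were rarer. Sox10 was found in 0 of 76, 8 of 66, 3 of 48 and 7 of 47 late NSC cells in stage order, and in 2 of 301 early NSC cells. No BP cell and 1 NBN cell had it. Its median among positive cells was 318.8, 364.1 and 16.2 TPM at E18.5, P0 and P1, so the level was low at P1. Nkx2-2 was found in 3, 2 and 4 NSC cells at E18.5, P0 and P1, each of these 9 at 11.6 TPM or more. It was also found in 6 of 88 cells at E10.5, 4 late BP cells and 5 NBN cells, where the highest levels were 21.2 TPM at E10.5, 1.32 TPM in late BP and 3.36 TPM in NBN. At 10 TPM or more, Nkx2-2 was thus seen in 9 late NSC cells, 2 early NSC cells, no BP cell and no NBN cell.

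Among the precursor surface genes, Pdgfra became common at the same stage as Olig1, and Cspg4 was rarer. Pdgfra reached 1 TPM in 4 of 88, 1 of 59, 3 of 68, 0 of 86, 0 of 76, 13 of 66, 7 of 48 and 18 of 47 NSC cells from E10.5 to P1. The last 3 shares were 19.7% (10.9 to 31.3%), 14.6% (6.07 to 27.8%) and 38.3% (24.5 to 53.6%), and the intervals overlap. The count of 0 at E17.5 allows up to 4.74%. Outside NSC, Pdgfra was in 3 BP cells and in 1, 2, 2 and 10 cells of the 4 NBN libraries in stage order. Of the 10 Pdgfra cells of NBN P3, 9 held meningeal markers, as did 13 of all 40 cells there. In late NSC 0 of 38 Pdgfra cells held meningeal markers, and Col3a1, a collagen of fibroblasts, reached 1 TPM in 0 of all 237 cells. Cspg4 was in 5, 5 and 7 NSC cells at E18.5, P0 and P1, in none of 76 at E17.5, in 1 early NSC cell, in no BP cell and in 3 NBN cells. Its levels differed between those stages, with medians among positive cells of 137.5, 3.33 and 39.0 TPM.

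Egfr was unlike the other 6 in being read at a low level nearly everywhere. At 1 TPM or more it was in 51.1% (44.5 to 57.6%) of late NSC cells, 32.6% (27.3 to 38.2%) of early NSC cells, 44.9% (38.3 to 51.7%) of late BP cells and 43.9% (37.1 to 50.8%) of NBN cells. At this threshold the intervals of NBN and late NSC overlapped. At 10 TPM or more the picture was different, with 18.6% (13.8 to 24.1%) of late NSC cells, 0.997% (0.206 to 2.89%) of early NSC cells, 4.85% (2.44 to 8.50%) of late BP cells and 4.25% (1.96 to 7.91%) of NBN cells. Over NSC stages from E10.5 to P1 these were 0, 0, 0, 3, 12, 15, 12 and 5 cells. Egfr at this level was therefore present at E17.5, 1 sampled stage before Olig1 and Pdgfra were common. The number of genes read per cell was compared within libraries. Cells with Egfr at 1 TPM had medians of 5250, 3817.5, 5176 and 3335 genes at E17.5, E18.5, P0 and P1, and cells without it 4292, 3120.5, 4784 and 3419, so Egfr cells had more genes at 3 of the 4 stages. For Olig1 the medians at E18.5, P0 and P1 were 3729, 5176 and 3410 in cells with it and 3359.5, 4956 and 3335 in cells without it. For Pdgfra they were 3735, 5285 and 3433.5 in cells with it and 3355, 5000 and 3299 in cells without it.

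A library mean over cells does not tell more cells with a gene from more transcript in each cell, and is to be read beside the shares. As mean TPM over all cells of a library, Olig1 had 0.123, 68.7, 51.5 and 64.3 at E17.5, E18.5, P0 and P1, against 0.246 at E10.5 and 0 at the 3 other early NSC stages. Its late BP means were 0, 0 and 0.0124, and its NBN values 0, 0, 42.5 and 3.28. Each of the 2 higher NBN values came from 1 cell. In order, the 3 last NSC stages were highest, then came NBN P1, and E17.5 lay among the libraries near 0.

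Olig2 had a mean of 7.00, 32.8, 29.3 and 52.1 TPM at E17.5, E18.5, P0 and P1, against 1.74, 2.44, 0 and 0 in early NSC from E10.5 to E15.5. It was 0 in each BP library and 0.0118, 0, 0.0658 and 0.0173 in NBN. Each late NSC library lay above every library of the other groups. The late order rests on few cells: the highest cell held 90.8% of the library sum at E17.5 and 32.1 to 46.7% at the 3 later stages. Without it the means were 0.652, 17.8, 20.3 and 31.5 TPM, and E17.5 was then under E10.5, which had 1.09 TPM without its own highest cell.

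Pdgfra averaged 0.00448, 132.1, 28.0 and 107 TPM at E17.5, E18.5, P0 and P1, against 1.05, 0.176, 3.08 and 0.0171 in early NSC. In late BP it had 0.833, 0.0337 and 0.00197, and in NBN 2.06, 4.56, 2.11 and 41.8 TPM. The E17.5 library was the lowest of the 8 NSC libraries, and NBN P3 lay above NSC P0, so late NSC overlapped with each other group. Without its highest cell the P0 value fell to 9.35 TPM.

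Egfr averaged 6.09, 29.7, 36.5 and 23.5 TPM at E17.5, E18.5, P0 and P1, against 0.705, 0.647, 1.60 and 1.74 in early NSC. In late BP it had 1.25, 8.04 and 3.16, and in NBN 2.88, 8.44, 8.63 and 17.9 TPM. All 4 late NSC libraries lay above the early ones, and E17.5 overlapped with BP and NBN. At P1 1 cell held 84.8% of the sum and the mean without it was 3.65 TPM, and in NBN P3 1 cell held 91.6%.

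Sox10 averaged 0, 51.2, 58.3 and 10.6 TPM at E17.5, E18.5, P0 and P1, against 0, 2.47, 0 and 0.671 in early NSC. It was 0 in each BP library and 0.325 TPM in NBN P1, 0 in the other NBN libraries. E17.5 was thus at 0 like most early stages, and 1 cell held 86.6% of the sum at P0. Cspg4 averaged 0.00324, 18.7, 0.673 and 10.1 TPM at the 4 late NSC stages, at most 0.0255 in early NSC, 0 in BP and at most 0.238 in NBN. Nkx2-2 averaged 0.0250, 3.11, 0.650 and 12.9 TPM, against at most 0.554 in early NSC, 0.0880 in late BP and 0.110 in NBN.

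**Figure D2:**
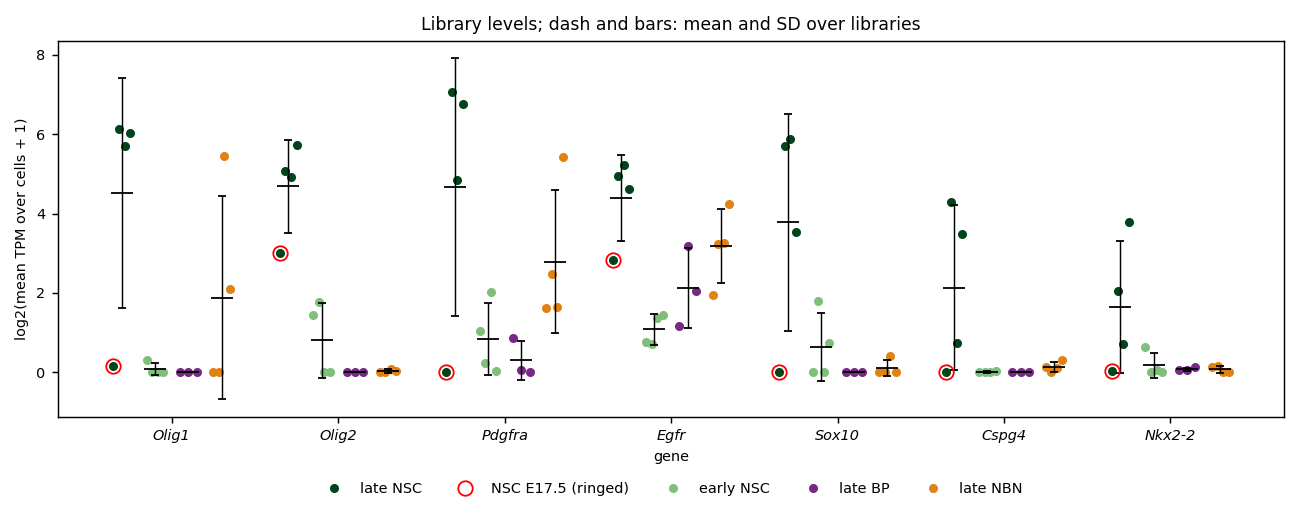
Library level of each gene as log2(mean TPM over cells + 1); points are libraries, dashes and bars the mean and SD over 4 late NSC, 4 early NSC, 3 late BP and 4 NBN libraries, and a red ring marks NSC E17.5. Late NSC Olig2 lies at 3.00 to 5.73 and no library of another group reaches 3.00, while the ringed library lies at 0 to 0.17 for Olig1, Pdgfra and Sox10.

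The question of the first test was which of these genes differed between late and early stem cells. Differences are on the log2(mean TPM + 1) scale. It makes changes of low genes look small and is no fold change where a group is at 0. In a limma fit over all libraries, 2 of the 7 passed a Benjamini-Hochberg adjusted p of 0.05, both higher in late NSC. In this comparison 0.377% of the 14072 genes tested were called higher and 0.433% in either direction. Olig2 was 3.87 ± 0.57 higher (SE, adjusted p = 0.0052) and Egfr 3.32 ± 0.66 (adjusted p = 0.035), with 4 late and 4 early libraries. Olig1 differed by 4.43 ± 1.21 (adjusted p = 0.17), Pdgfra by 3.84 ± 1.21 (adjusted p = 0.29) and Sox10 by 3.15 ± 0.92 (adjusted p = 0.22), none of which passed. Cspg4 and Nkx2-2 did not reach the filter of a mean of 1 TPM in 4 libraries and were not tested. For Sox10, 3 of the 4 libraries that met the filter were late NSC, so a difference was built into its passing. Olig2 met the filter in every late NSC library and otherwise only in NSC E10.5 (1.74 TPM) and E11.5 (2.445 TPM). A difference was thus partly built into its passing here, and fully so against BP and NBN. Late NSC libraries all lay above the early ones for Olig2 and Egfr, as they did for 3.06% of all genes tested.

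Calls depended on single libraries and cells. With E17.5 left out, Olig1 differed by 5.88 ± 0.95 (adjusted p = 0.0058), Pdgfra by 5.39 ± 0.88 (adjusted p = 0.0060) and Sox10 by 4.41 ± 0.59 (adjusted p = 0.0018), so these 3 then passed in limma as well. Each of the 3 passed in only this 1 of the 17 fits without 1 library (adjusted p of up to 0.44, 0.61 and 0.50). Olig1 met the filter in late NSC and NBN libraries only, so a difference was partly built into its being tested. Without E15.5, where 84 of 86 cells held neuron markers, Olig2 differed by 3.60 ± 0.62 (adjusted p = 0.018) and Egfr missed the threshold (3.45, adjusted p = 0.053). Egfr also missed it without any 1 of the other NSC libraries except E17.5 (adjusted p = 0.087 to 0.14), and without BP E12.5, E14.5 or P0 (adjusted p = 0.051 to 0.055). Without the highest cell of each gene and library, an alternative chosen after seeing the data, Olig2 differed by 3.03 and Egfr by 2.54, both at an adjusted p of 0.062. Astroglial and radial glia markers were also higher in late NSC. The summed mean of 10 astroglial markers was 625 to 7505 TPM in late NSC and 12.6 to 280 TPM in early NSC, and that of 10 radial glia markers was 2370 to 13904 TPM in late NSC and 853 to 2291 TPM in early NSC. The sums of 10 neuron markers overlapped, at 727 to 4110 TPM in late NSC and 279 to 11709 TPM in early NSC. Their part in the results was not tested.

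Against basal progenitors of the same period, Olig2 was 4.68 ± 0.62 higher in late NSC (adjusted p = 0.0036) and the only one of the 7 to pass in limma, beside 0.512% of all genes called higher and 0.611% in either direction. Olig1 differed by 4.50 ± 1.31 (adjusted p = 0.17), Pdgfra by 4.36 ± 1.31 (adjusted p = 0.20), Sox10 by 3.78 ± 0.99 (adjusted p = 0.12) and Egfr by 2.27 ± 0.72 (adjusted p = 0.23). Late NSC libraries lay above each late BP library for Olig1 and Olig2, as for 6.22% of genes tested. Olig2 passed when any 1 of the 17 libraries was left out and in all 11 other alternatives. It met the filter through NSC libraries alone, so a difference from BP was built into its being tested. With E17.5 left out, Olig1, Pdgfra and Sox10 passed here too (adjusted p = 0.0078, 0.0049 and 0.0013). Each of the 3 was called in 1 of the 17 fits without 1 library (adjusted p of up to 0.43, 0.48 and 0.33). Sox10 also met the filter through NSC libraries alone, so its difference from BP was built in likewise. Olig1 met it in late NSC and NBN libraries and in no BP library, so a difference was partly built in.

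Against newborn neurons, Olig2 was 4.65 ± 0.57 higher (adjusted p = 0.00070) and Sox10 3.68 ± 0.92 higher (adjusted p = 0.045), 2 of the 7, beside 1.83% of genes called higher and 2.28% in either direction. Olig1 differed by 2.62 ± 1.21 (adjusted p = 0.30), Pdgfra by 1.88 ± 1.21 (adjusted p = 0.48) and Egfr by 1.23 ± 0.66 (adjusted p = 0.39), none of which passed. For Olig2 the groups did not overlap, as for 4.65% of genes. For Sox10 they did, since NSC E17.5 was at 0 like every NBN library but P1. Both genes met the filter through NSC libraries alone, so a difference from NBN was built into their passing. The SE rests on 1 spread shared by all groups, while the Sox10 SD was 2.74 over late NSC and 0.203 over NBN libraries. Without NBN P3, the library with meningeal and microglial cells, Pdgfra differed by 2.76 ± 1.20 (adjusted p = 0.21), and Olig2 and Sox10 kept their calls (adjusted p = 0.00082 and 0.048). Sox10 missed the threshold in 15 of the 17 fits without 1 library (adjusted p of up to 0.14). Both late comparisons and the first one share the late NSC libraries and are not independent.

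Over all 8 NSC stages, with no cut between early and late, the log2 level grew by 0.48 ± 0.09 per day for Egfr (limma adjusted p = 0.0092) and by 0.48 ± 0.11 for Olig2 (adjusted p = 0.037). These are 2 of the 7, beside 1.12% of genes called rising and 1.36% in either direction. Olig1 had the steepest slope among the 5 tested (0.65 ± 0.16 per day) and missed the threshold (adjusted p = 0.063), as did Pdgfra (0.57 ± 0.16, adjusted p = 0.11) and Sox10 (0.46 ± 0.13, adjusted p = 0.12). The Egfr slope passed in each of 17 fits without 1 library, and that of Olig2 in 6 of them (adjusted p = 0.012 to 0.15). With E17.5 left out, the slopes of Olig1 (0.71), Pdgfra (0.64) and Sox10 (0.51) passed (adjusted p = 0.024, 0.027 and 0.034). Among the 17 fits without 1 library, Olig1 passed in 3, and Pdgfra and Sox10 in 1 each. Without the highest cells both Egfr and Olig2 missed the threshold, with slopes of 0.34 and 0.41 (adjusted p = 0.055).

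Joint detection was counted in the cells themselves. Of the 66 late NSC cells with Olig1, 32 (48.5%) had Olig2, against 18 of 171 cells without Olig1 (10.5%). With Pdgfra the counts were 30 of 66 (45.5%) and 8 of 171 (4.68%). Seen from the other side, Olig1 was in 30 of 38 Pdgfra cells (78.9%), 14 of 18 Sox10 cells (77.8%), 13 of 17 Cspg4 cells (76.5%) and 7 of 9 Nkx2-2 cells (77.8%), against 64 of all 161 cells at E18.5, P0 and P1 (39.8%). Cells of a library are not replicates, so these shares are descriptions with no test. Within libraries, Pdgfra was in 55.6% of Olig1 cells and 6.25% of other cells at E18.5, in 19.0% and 11.1% at P0, and in 64.0% and 9.09% at P1. Olig2 was in 10 of 18 Olig1 cells and 5 of 48 others at E18.5, in 12 of 21 and 5 of 27 at P0, and in 10 of 25 and 3 of 22 at P1. The gap for Olig2 was thus present at all 3 stages, while that for Pdgfra was small at P0.

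**Figure D3:**
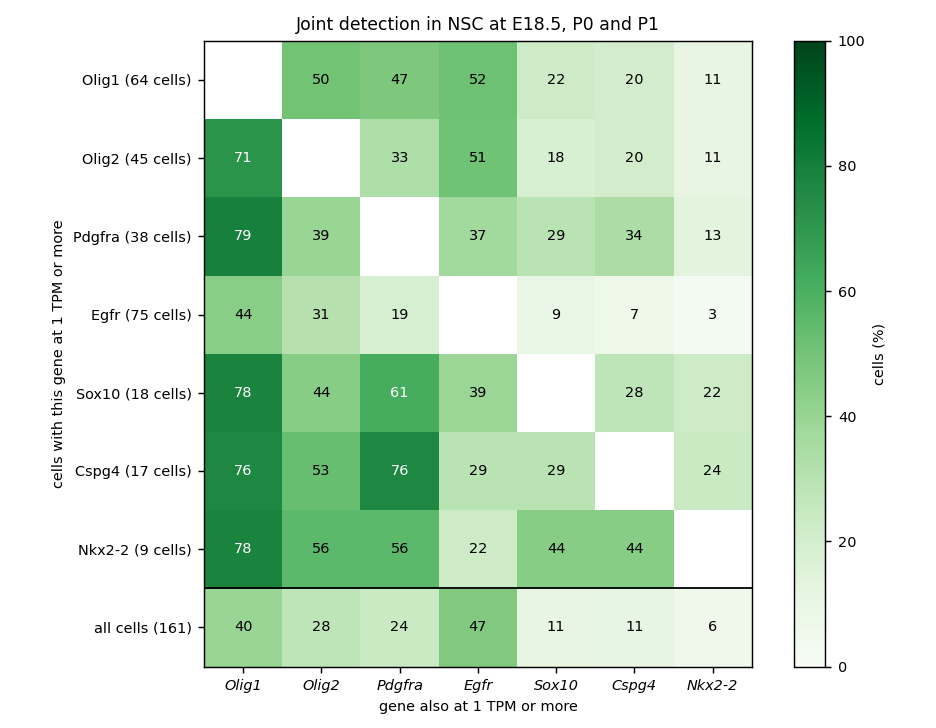
Joint detection at 1 TPM or more in 161 NSC cells of E18.5, P0 and P1; each field is the share (%) of cells with the row's gene that also have the column's gene, and the last row is the share among all cells. Olig1 is in 71.1 to 78.9% of cells with any of the other genes except Egfr (44.0%), against 39.8% of all cells.

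Olig2 was in 15 of 38 Pdgfra cells (39.5%), against 45 of all 161 cells at E18.5, P0 and P1 (28.0%), and 14 of these 15 also had Olig1. Over the 161 cells of E18.5, P0 and P1, a grouping made after the values were seen, 14 had all 3 genes, 18 Olig1 and Olig2, 16 Olig1 and Pdgfra, and 1 Olig2 and Pdgfra. Another 16 had Olig1 alone, 12 Olig2 alone and 7 Pdgfra alone, and 77 had none. The counts differed between these libraries, 1 per stage. Cells with Olig1 and Olig2 but no Pdgfra numbered 6, 9 and 3 at E18.5, P0 and P1, and cells with Olig1 and Pdgfra but no Olig2 numbered 6, 1 and 9. Some of these cells lay near the cut of 1 TPM, such as a P1 cell with Pdgfra at 1.01 TPM and another with Olig2 at 0.45 TPM. Cspg4 kept close to Pdgfra, which was in 5 of 5 Cspg4 cells at E18.5 and 7 of 7 at P1, but in 1 of 5 at P0. Sox10 cells had Pdgfra in 6 of 8, 1 of 3 and 4 of 7 cases.

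Egfr was in 33 of 66 Olig1 cells (50.0%) and 88 of 171 other late NSC cells (51.5%), a pooled count that includes E17.5, where 2 cells had Olig1 and 46 had Egfr. Within libraries it was in 55.6% of Olig1 cells and 45.8% of other cells at E18.5, in 66.7% and 48.1% at P0, and in 36.0% and 31.8% at P1, so it was more frequent in Olig1 cells at each of these 3 stages. For Olig2 the shares were 27 of 50 (54.0%) and 94 of 187 (50.3%), and for Pdgfra 14 of 38 (36.8%) and 107 of 199 (53.8%). Within libraries it was in 38.5% of Pdgfra cells and 50.9% of other cells at E18.5, in 57.1% and 56.1% at P0, and in 27.8% and 37.9% at P1. These shares have no test. The number of genes read per cell, given above, also differed, and its part in the shares was not tested.

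**Figure D4:**
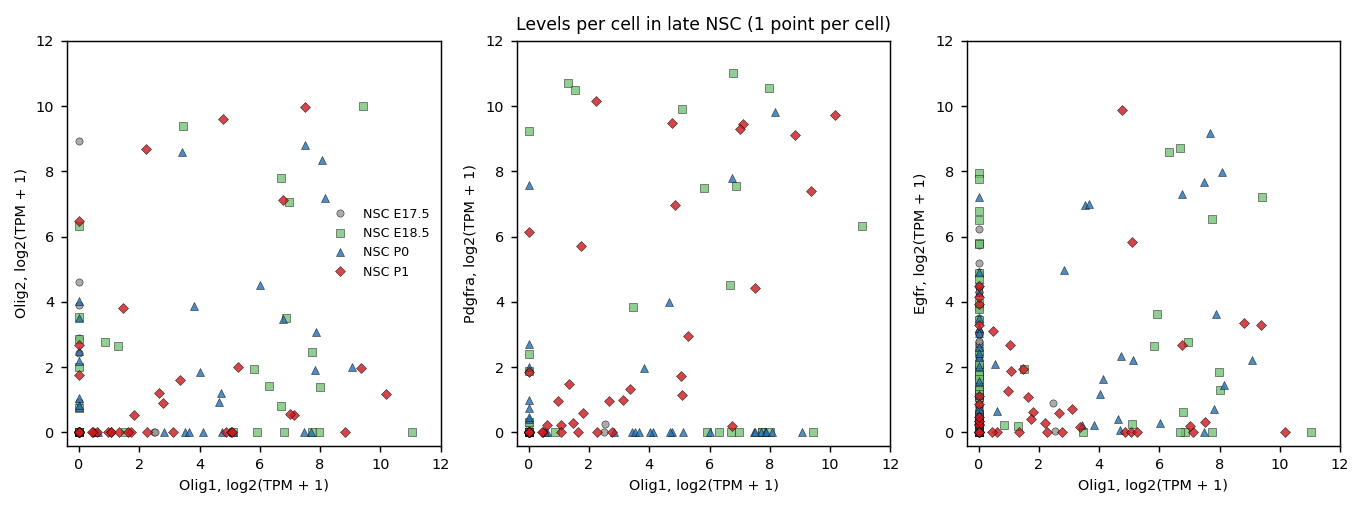
Levels per cell in the 237 late NSC cells as log2(TPM + 1), Olig1 against Olig2, Pdgfra and Egfr; 1 point is 1 cell, with a symbol for each stage. Cells of E18.5, P0 and P1 spread along both axes, and all E17.5 cells but 2 lie below 1 on the Olig1 axis.

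As correlations of log2(TPM + 1) over the 237 late NSC cells, which share libraries and depth, Olig1 had r = 0.43 with Olig2 and 0.49 with Pdgfra, and Olig2 had 0.21 with Pdgfra. Within the libraries of E18.5, P0 and P1 these were 0.42, 0.50 and 0.31 for Olig1 with Olig2, 0.42, 0.19 and 0.71 for Olig1 with Pdgfra, and 0.03, 0.22 and 0.34 for Olig2 with Pdgfra, so no order of the 3 pairs held at every stage. Over all late NSC cells Pdgfra had r = 0.51 with Cspg4 and 0.41 with Sox10, and Egfr had r of -0.11 to 0.19 with the other 6. The levels in single cells varied widely, and the examples were chosen after their values were seen. An E18.5 cell with 2118 TPM of Olig1 also had 791.8 of Sox10, 101.8 of Nkx2-2, 78.5 of Pdgfra and 48.9 of Cspg4, with Olig2 at 0. The P1 cell that carried most of that library's Egfr had 937.6 TPM of it, with 784.7 of Olig2, 708.6 of Pdgfra and 26.2 of Olig1. High cells therefore did not share 1 combination.

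Counted without Egfr, at least 2 of the 6 genes were found together in 53 of 237 late NSC cells (22.4%), 4 of 301 early NSC cells (1.33%), 0 of 227 late BP cells and 2 of 212 NBN cells (0.943%). All 53 came from E18.5, P0 and P1, with 17 of 66, 15 of 48 and 21 of 47 cells, and none of 76 at E17.5. At least 3 genes were in 10, 5 and 14 cells, and at least 4 in 6, 3 and 7. No cell had all 6.

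**Figure D5:**
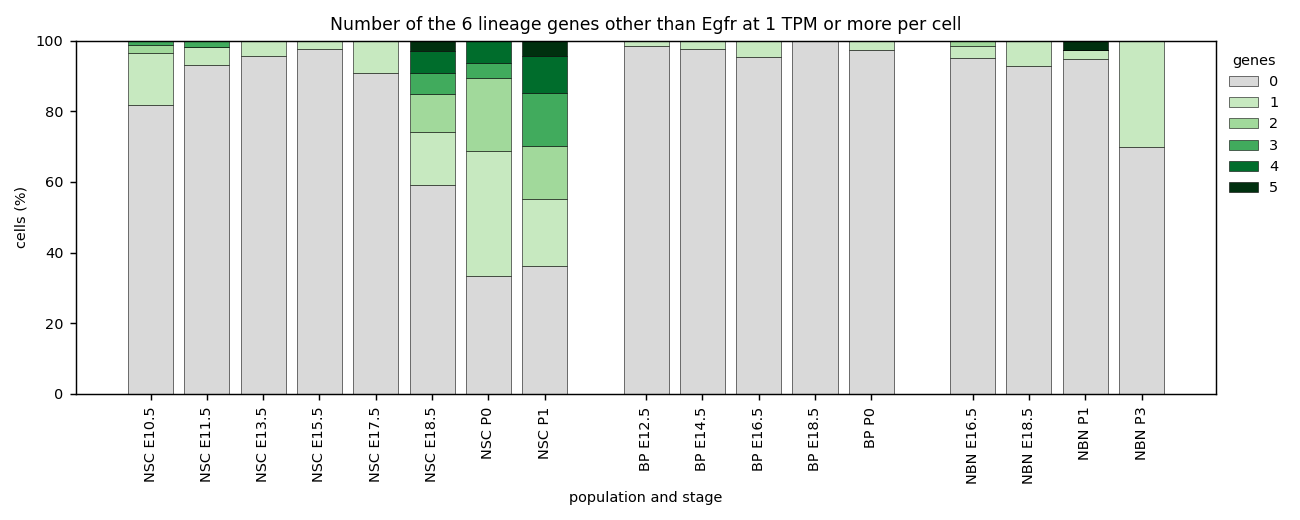
Share of cells (%) in each library by the number of the 6 genes other than Egfr at 1 TPM or more, from 0 (grey) to 5 (darkest green). Cells with 2 or more genes make up 25.8, 31.2 and 44.7% of NSC at E18.5, P0 and P1, and 0% at E17.5.

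Most cells with these genes also held markers of radial glia, the stem cells of the cortex. Radial glia markers were held by 64 of 66 Olig1 cells (97.0%), 45 of 50 Olig2 cells (90.0%), 35 of 38 Pdgfra cells (92.1%) and 16 of 18 Sox10 cells (88.9%), against 83.5% of all late NSC cells and 144 of 161 cells (89.4%) at E18.5 to P1, where most of these cells lay. Hes5 itself reached 1 TPM in 29 of 64 Olig1 cells (45.3%) and 68 of all 161 cells (42.2%) of those 3 stages. Astroglial markers differed between stages. At E18.5 they were held by 1 of 18 Olig1 cells and 0 of 13 Pdgfra cells, against 18 of all 66 cells, at P0 by 20 of 21 and 7 of 7, against 38 of 48, and at P1 by 17 of 25 and 9 of 18, against 31 of 47. Olig1 cells without neuron markers were the rule at E18.5 (0 of 18 held them, against 21 of 66) and P1 (3 of 25, against 7 of 47), but not at P0 (14 of 21, against 24 of 48). All 3 Sox10 cells of P0 held markers of radial glia, astroglia, neurons, interneurons and dividing cells at once. No doublet caller was run, and whether such cells are single was not tested. Dividing cell markers were held by 5 of 18, 14 of 21 and 0 of 25 Olig1 cells at E18.5, P0 and P1, against 18 of 66, 23 of 48 and 6 of 47 of all cells.

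Interneuron markers (Dlx and Gad genes among others), which cells born in the ventral forebrain carry, were held by 12 of 66 Olig1 cells (18.2%) and 19.0% of all late NSC cells. Markers of ventral progenitors (Nkx2-1, Gsx1, Gsx2 and Lhx8, at least 2 of them) were held by 0 of 237 late NSC cells, and their summed level was 3.35 to 20.1 TPM in late NSC and 3.45 to 34.6 TPM in early NSC. Markers of mural, endothelial and microglial cells were held by no late NSC cell. Leaving out cells with markers of other types, 45 of them with interneuron markers in late NSC, left Olig2 called against early NSC, BP and NBN. The differences from BP and NBN were built into its passing the filter, so those 2 calls add no support.

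Outside late NSC, the lineage genes were found in few cells, and these are described by their own values. The NBN P1 cell with 1659 TPM of Olig1 also had Olig2 (2.57 TPM), Pdgfra (14.6), Egfr (28.0), Sox10 (12.7) and Cspg4 (3.30), and it held neuron markers. The Olig1 cell of NBN P3 (131.1 TPM) had none of the other 6 genes and held meningeal and microglial markers. At E11.5, 1 NSC cell had 146 TPM of Sox10 with Olig2 and 10.4 TPM of Pdgfra. At E10.5, 1 cell had Olig2 (13.1 TPM), Pdgfra (18.6) and Nkx2-2 (13.7) together. These 4 cells were chosen after their values were seen.

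Other genes of the lineage gave a mixed account. Of 18 genes of precursors, 12 were tested, and late NSC against early NSC had 1 higher and none lower, Sox8, a Sox factor close to Sox10 (3.94 ± 0.73, limma adjusted p = 0.022). Its library means were 8.07 to 56.5 TPM in late NSC and 0.247 to 1.51 TPM in early NSC. The median difference of the 12 was 0.77, against 0.0035 for all genes tested. The 2 precursor genes with the highest late NSC means were Ptprz1, a receptor phosphatase of precursors and radial glia (3.27 ± 0.75, adjusted p = 0.078), and Zfp488, a zinc-finger factor that works with Olig2, whose means were 95.1 to 218.4 TPM in late NSC and 46.3 to 199.8 TPM in early NSC. None of the 12 passed in limma against BP, where 6 had an unadjusted p below 0.05, as did 1468 of all 14072 genes tested. Against NBN, Sox6 (3.65, adjusted p = 0.020) and Sox8 (3.37, adjusted p = 0.026) were higher. With age in NSC, Cspg5 (0.62 per day), Sox8 (0.53) and Ptprz1 (0.51) rose (adjusted p = 0.024, 0.028 and 0.0020), with a median slope of 0.12 for the list and 0.0055 for all genes.

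Of 20 genes of maturing oligodendrocytes, 11 were tested, and 1, Bcas1, a gene of newly forming oligodendrocytes, passed against early NSC (3.67 ± 0.54, limma adjusted p = 0.0052). The 4 libraries in which Bcas1 met the filter were the 4 late NSC libraries, so a difference was built into its passing, and its values are a description. It had library means of 4.24 to 52.8 TPM in late NSC, at most 0.0349 in early NSC, and 0 in each late BP and NBN library. Tcf7l2, a Wnt effector used in oligodendrocyte differentiation, was higher than in NBN (3.23 ± 0.80, adjusted p = 0.044). Cnp, a myelin enzyme, had 4.33 to 163.3 TPM in late NSC and 0.0666 to 6.06 TPM in early NSC and did not pass (4.04 ± 0.93, adjusted p = 0.079). The list's median difference from early NSC was 0.11.

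Of 16 ligands and partner receptors of Pdgfra and Egfr, 11 were tested and none passed in any of the 4 comparisons with limma. At an unadjusted p below 0.05 they numbered 3 against early NSC, 1 against BP, 1 against NBN and 2 with age. Among all 14072 genes tested, 1221, 1468, 2221 and 1806 did so in the same order. Tgfa, a ligand of Egfr, had 0.205 to 15.2 TPM in late NSC and at most 0.0327 in early NSC (2.92 ± 0.93, unadjusted p = 0.0058, adjusted p = 0.29). Nrg1, a ligand of Erbb receptors, had 65.0 to 201.1 TPM in late NSC and 11.4 to 107.5 TPM in early NSC (0.94 ± 0.93, adjusted p = 0.88). The median over the 11 was 0.73. Of 12 genes of hedgehog signalling, which induces Olig2 in the ventral neural tube, 10 were tested. None passed in limma against early NSC or with age, with median differences of -0.29 and -0.03. At an unadjusted p below 0.05 were 2 and 1 of the 10, beside 1221 and 1806 of all 14072 genes. The 2 most abundant hedgehog genes in late NSC were Gas1, a hedgehog co-receptor (1.24 ± 0.87, adjusted p = 0.78), and Gli3, a transcription factor of the pathway (-0.89 ± 0.69, adjusted p = 0.82). Gas1 was higher than in BP (4.37 ± 0.94, adjusted p = 0.042). Against NBN, Gas1 (3.42), Gli2 (3.94) and Gli3 (3.28) were higher (adjusted p = 0.049, 0.018 and 0.022).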

How the data were processed

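Single cells of the dorsal cortex were sorted, captured and sequenced (SMARTer cDNA, Nextera XT), and the capture was inspected by microscopy, per the labels' protocols. The deposited tables hold TPM for 23078 genes and 1094 cells, and kallisto 0.43.0, GRCm38.p2 and mm10 are named per the submitters' processing notes. Whole numbers alone fill the deposited columns of 7 near-empty cells. As deposited by the authors, these are treated as a score, here read like TPM. Depth is not in TPM, so no read count model was fitted. The members and lists, and the split of NSC into early and late, were chosen with earlier results of these data known.

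A library's value was log2 of its mean TPM plus 1. The 14072 genes that averaged 1 TPM or more in 4 of the 17 libraries were kept (Olig1, Olig2, Pdgfra, Egfr and Sox10 among them) and fitted with limma 3.58.1 in R 4.3.3 (5 groups of libraries, eBayes with a trend, two-sided, Benjamini-Hochberg over all genes, threshold 0.05). The age trend had a slope per population, with 18.5 plus the labelled days after birth as age. All cells were kept, 11 with under 50 genes. Besides the 7 members, called genes of each list were named (up to 4, or, with under 2 called, the 2 with the highest late NSC mean), and the genes most like each member by Pearson r, some of which are not reported here. In simulated libraries with 200 changed genes among 14072, late against early NSC recovered 78.8% of differences of 4 log2 units, 20.9% of 2 and 1.49% of 1. Each simulated gene had 1 spread in all groups, while the SD of Olig1 was 2.90 over late NSC and 0.158 over early NSC libraries. These rates therefore need not hold for the members. Alternatives changed the pseudocount, filter, averaging, scaling, cells and libraries. Python 3.11.15, pandas 2.3.3 and SciPy 1.17.1 made the shares. GENCODE M21, whose coordinates are printed, is another release than the files'.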

Additional observations from a re-analysis of the deposited data

Results flagged for a closer look

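Within groups of 4, 5 or 8 libraries, 7 of 32 gene and group combinations had 1 library far from the others (log2 of the mean TPM plus 1; gap over range above Dixon's 95% value). Chance flags about 1 in 20 groups, 1.6 here, and the combinations are not independent because many groups are otherwise at 0. In late NSC, Olig1 at E17.5 stood low at 0.17. In early NSC, E10.5 stood high for Olig1 (0.32) and Nkx2-2 (0.64), and E15.5 for Cspg4 (0.036). Among the BP libraries, P0 stood high for Olig1 (0.018) and E16.5 for Pdgfra (0.87). Among NBN, P1 stood high for Sox10 (0.41), the library whose single cell with 6 of the genes is described above. Each of the 7 values is under 1 on this scale and comes from at most 6 cells at 1 TPM or more.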

How the results depend on the processing

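Shares of tested genes called were 0.433% against early NSC, 0.611% against BP, 2.28% against NBN and 1.36% for age. With a pseudocount of 0.1 TPM the first 3 were 0.263%, 0.377% and 1.42%, and with no filter 0.111%, 0.191% and 0.735%. The mean over cells of log2(TPM + 1) gave 0.192% against BP, 1.19% against NBN and 15.8% for age (262 genes rising, 1960 falling, against 158 and 34). Shares of cells gave 0.178% against early NSC, 1.33% against NBN (102 genes higher, 85 lower, against 258 and 63) and 12.8% for age (197 rising, 1598 falling). The compared libraries alone gave 0.156% against early NSC, 0.171% against NBN and 0.732% for age. Without cells holding other types' markers it was 0.383% against BP. Quantile normalization called 177 of its 282 genes against NBN higher and moved the median of all genes there to -0.04, against 0.13. Fits without 1 library gave 0.114 to 0.995%, 0.064 to 1.10%, 0.583 to 5.03% and 0.597 to 2.05% in the 4 comparisons, lowest without NSC E11.5, BP E18.5, NSC P0 and NSC E10.5, and highest without NSC E17.5 in the first 2 and NBN P3 in the others. Causes were not tested.

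Olig2 passed in 8 of 11 other alternatives against early NSC and in 11 of 11 against BP and against NBN, and Egfr in 4 of 11 against early NSC and 7 of 11 with age. As said above, a difference of Olig2 from BP and NBN was built into its passing the main filter. Those counts therefore add no support. On shares of cells Olig1 passed against early NSC (adjusted p = 0.0069), BP (0.0029) and NBN (0.016) and with age (0.0028). Averaging log2 values, Olig1 passed in the same comparisons except BP (adjusted p = 0.054). Sox10 against NBN passed in 1 of 8. Egfr against NBN turned to -0.0568 (adjusted p = 0.98) without cells holding other types' markers. Of 52 shares of cells or joint shares, 24 moved at 10 TPM, 10 at any level above 0 and 1 without cells holding other types' markers, Sox10 at NSC P0 (0%, against 6.25%). No paired analysis was possible because replicate numbers in the labels only number the cells of a library. Library values rest on 39 to 89 cells, often on 25 or fewer positive ones, and TPM give no depth, so a cell without a gene may hold it below detection.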

Other observations

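The genes most like each member were found by Pearson r of log2 levels, as a description with no test, since libraries share population, age and depth. Over 17 libraries, Olig2 was most like Hes5 (r = 0.93, rho = 0.76), the Notch effector whose promoter drives the reporter of the sort, then Ass1 (0.92) and G0s2 (0.92). Olig1 was most like Gfap, the intermediate filament of astrocytes (r = 0.94, rho = 0.79), then Adhfe1 (0.92) and Prok2 (0.91). Egfr was most like Sparcl1, a matrix protein of astroglia (r = 0.91, rho = 0.94) and then Tspan7 (0.90). Pdgfra went with Sardh (0.93), Fbxo2 (0.92) and Afap1l2 (0.91), and Sox10 with Cbr3 (0.96), Bco2 (0.94) and G0s2 (0.92). Cspg4 was nearest to Moxd1 (0.91), Vit (0.90) and Ppapdc1a (0.88), and Nkx2-2 to Moxd1 (0.96), Phf19 (0.93) and Isoc2b (0.90). Here too rho was lower, 0.525, 0.552 and 0.562 for Cspg4 and 0.566, 0.637 and 0.796 for Nkx2-2.

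Over single cells, 237 of late NSC that share libraries and depth, Olig1 went with Ncald, a calcium sensor of neurons and glia (r = 0.64, rho = 0.67), Serpine2 (0.55), Ednrb, an endothelin receptor (0.49), Pdgfra (0.49) and Map3k1 (0.48). The r of Olig1 with Ncald within stages was 0.65, 0.62, 0.50 and 0.68 from E17.5 to P1. At E17.5 only 2 of 76 cells had Olig1. Pdgfra went with Cntn1, a neural adhesion protein (r = 0.74, rho = 0.55), Ncald (0.62), Serpine2 (0.53), Akap13 (0.52) and Gatm (0.52). With Cntn1 its r was -0.02, 0.91, 0.69 and 0.56 from E17.5 to P1, and no E17.5 cell had Pdgfra at 1 TPM. Olig2 was nearest to Olig1 (0.43), Serpine2 (0.41), Cdh20 (0.40, rho = 0.048), Kif13a (0.37) and Sppl2b (0.35). Egfr was nearest to Cdk1, a kinase of mitosis (0.35), Osgep (0.35), Cad (0.34) and Cdk6 (0.34), and Egfr cells also had more genes read at E17.5, E18.5 and P0.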
